A study of Homo sapiens with 36 samples.

Results

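The mitochondrial ribosomal proteins are the nuclear-encoded proteins of the ribosome that works inside mitochondria. They were taken here as the rows of the count matrix named MRPL or MRPS followed by a number and, for some, a letter from A to C, with a mean of at least 5 counts over the 36 libraries. The name matched 73 of the 20802 gene rows and the count minimum kept 72, 45 named MRPL for the large subunit and 27 named MRPS for the small subunit. MRPL13 was left out with a mean of 4.31 counts, and the least abundant members kept were MRPL34 with a mean of 13.3 counts, MRPL35 with 18.0 and MRPS21 with 18.0. All 72 also passed the expression filter of the test, so every member has a result at every dose.

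The cells were LoVo, an established human colorectal cancer line, grown in F-12K medium with fetal bovine serum. They were treated for 24 h with a MEK inhibitor at 0.03, 0.1, 0.3, 1, 3, 10, 30, 100, 300 or 1000 nM, or with the solvent DMSO. There were 3 libraries per dose, and for DMSO 3 labelled chip 1 and 3 labelled chip 2, after the sequencing chip. All groups are 1 cell line at 1 time point, and the labels do not name the chip of a treated library. Counts come from Ion AmpliSeq, in which 1 short amplicon stands for each gene, so a value can be followed across doses within a gene but not compared as a level between genes.

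Mitochondrial ribosomes translate the few proteins that mitochondrial DNA encodes, which are core subunits of the respiratory chain and the ATP synthase. Their RNA comes from mitochondrial DNA, while all of their proteins are made from nuclear genes in the cytosol and imported. The large subunit holds the peptidyl transferase centre and the exit tunnel, and the small subunit holds the decoding site. Many of the proteins have a bacterial counterpart and others arose with mitochondria. MEK is the kinase that activates ERK, and DUSP6, a phosphatase of ERK, is a well known ERK target gene.

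Sequences around the start sites of 10 member genes are shown because the members differed in the short motifs they carry there. RefSeq promoters of build GRCh38.p14, 250 bases before the start and 50 after it, were matched by symbol for 64 of the 72 members. Both strands were searched for the YY1 motif AAGATGGCG, the ETS motif CCGGAAGT, the E-box CACGTG and the NRF1 motif, GCGCA and GCGC with 1 base of any kind between them, and matches of different motifs were counted separately, also where they overlap. The motifs were chosen after the expression values were known, and the printed genes after it was known which held a match. Each window below runs from 70 bases before the start to 30 from the start on, 5′ to 3′ on the gene's strand, with a match in capitals. The first 6 hold the YY1 motif, MRPL3 and MRPL16 hold the ETS motif (MRPL16 on the opposite strand), and MRPL12 and MRPS6 hold none of the 4 motifs. They lie at chr17:75904855-75904954 (minus strand) for MRPL38, chr12:93467444-93467543 (plus) for MRPL42, chr5:44808877-44808976 (plus) for MRPS30, chr6:42217832-42217931 (minus) for MRPS10, chr6:43687762-43687861 (minus) for MRPS18A, chr15:88467359-88467458 (minus) for MRPL46, chr3:131502942-131503041 (minus) for MRPL3, chr11:59810749-59810848 (minus) for MRPL16, chr17:81703297-81703396 (plus) for MRPL12 and chr21:34073508-34073607 (plus) for MRPS6.
MRPL38: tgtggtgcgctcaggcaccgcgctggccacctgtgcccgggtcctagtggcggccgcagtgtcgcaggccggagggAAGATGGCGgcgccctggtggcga
MRPL42: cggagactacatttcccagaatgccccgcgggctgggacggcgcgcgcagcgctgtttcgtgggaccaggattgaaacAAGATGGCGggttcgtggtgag
MRPS30: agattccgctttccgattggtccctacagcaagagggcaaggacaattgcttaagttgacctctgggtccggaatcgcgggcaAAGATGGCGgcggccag
MRPS10: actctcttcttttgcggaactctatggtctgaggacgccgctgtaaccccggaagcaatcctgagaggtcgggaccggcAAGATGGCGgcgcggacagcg
MRPS18A: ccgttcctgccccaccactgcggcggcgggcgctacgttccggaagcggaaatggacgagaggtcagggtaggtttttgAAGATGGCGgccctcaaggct
MRPL46: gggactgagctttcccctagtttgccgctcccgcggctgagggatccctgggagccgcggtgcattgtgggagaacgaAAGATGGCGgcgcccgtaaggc
MRPL3: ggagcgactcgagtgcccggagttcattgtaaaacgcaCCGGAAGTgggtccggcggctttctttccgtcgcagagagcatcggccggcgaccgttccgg
MRPL16: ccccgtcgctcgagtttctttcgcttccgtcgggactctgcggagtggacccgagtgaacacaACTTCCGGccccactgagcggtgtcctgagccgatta
MRPL12: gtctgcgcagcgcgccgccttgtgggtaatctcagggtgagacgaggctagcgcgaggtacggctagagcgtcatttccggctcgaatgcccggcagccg
MRPS6: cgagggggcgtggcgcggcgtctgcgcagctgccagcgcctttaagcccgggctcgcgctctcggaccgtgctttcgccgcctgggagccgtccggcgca

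The YY1 motif stood in 13 of the 64 member promoters (20.3%), against 4.18% of the 8730 promoters of tested genes and 1.85% of all 27305 promoters of the same length. Among members called lower at 1000 nM it stood in 11 of 35 promoters (31.4%), and among members not called at that dose in 2 of 27 (7.41%). The 6 genes printed above with it were all called lower, and the 2 not called, MRPL36 and MRPS18B, are not printed. Counting only the 50 bases after the start, 10 of 64 members held it (15.6%) against 3.01% of tested genes. The ETS motif stood in 10 of 64 (15.6%) against 8.92%, the E-box in 6 of 64 (9.38%) against 10.5%, and the NRF1 motif in 7 of 64 (10.9%) against 11.8%. Among members called lower and members not called at 1000 nM, the ETS shares were 17.1% and 14.8%. They were 5.71% and 14.8% for the E-box, and 5.71% and 18.5% for the NRF1 motif. The split by call was made for members only, so it has no background here. A match describes the letters only, these shares were not tested, and the amplicon counts hold no measure of binding.

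The libraries held between 2972186 and 4751839 counts, 3952427 at the median, and member rows together held 14082 to 26207 of them. DUSP6 was at 58.5 to 69.5 CPM (counts scaled to TMM library size) in the 6 DMSO libraries and at 1.41 to 2.34 CPM at 1000 nM, a log2 fold change of -5.06 ± 0.20 (SE; adjusted p = 1.1e-26, edgeR's quasi-likelihood test). Some libraries stood apart from their own group: the root mean square deviation over genes was 0.451 for replicate 1 and 0.410 for replicate 3 of 1000 nM, 0.442 for replicate 1 of 1 nM, 0.350 for replicate 3 of 30 nM and 0.340 for replicate 2 of 0.1 nM, against a median of 0.259 over all libraries (log2 scale). The 10 colorectal epithelial markers were all detected, summing to 3400 to 3590 CPM in DMSO and 3090 to 3350 CPM at 1000 nM. The 9 fibroblast markers summed to 3.26 to 4.42 CPM in DMSO and 39.5 to 43.4 CPM at 1000 nM, with 4 rows at 0 at that dose. The 6 blood cell markers summed to 8.47 to 15.8 CPM and 64.9 to 78.5 CPM, nearly all of it LYZ, with 3 rows at 0 at 1000 nM. The fibroblast and blood sums rose with dose, and their part in the members' results was not tested.

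From 10 nM upwards the median member lay below DMSO by 0.23 or more on the log2 scale in every library, and 23 to 39 of the 72 members were called lower at each of these doses. MRPS6 was called higher at each of them, 24 members were called at no dose, and the median of all tested genes stayed near 0. As a share of all counts, member rows took 0.558% to 0.569% in the 6 DMSO libraries and 0.415% to 0.426% in the 3 libraries at 1000 nM. The median member in each DMSO library lay between -0.02 and 0.02 on the log2 scale, relative to the DMSO mean. It lay between -0.12 and 0.03 at 0.1 nM, where replicate 2 alone was below DMSO, between -0.07 and -0.03 at 1 nM, between -0.13 and -0.09 at 3 nM, between -0.28 and -0.23 at 10 nM, between -0.43 and -0.29 at 30 nM, and between -0.52 and -0.43 at 1000 nM. All libraries from 1 nM upwards were thus below all DMSO libraries in the member median, and those at 100, 300 and 1000 nM overlapped each other. Replicates 2 and 3 of 0.3 nM (-0.032 and -0.044) and replicate 2 of 0.03 nM (-0.024) also lay below the lowest DMSO library (-0.022). The libraries at 0.3 and 1 nM overlapped in the member median. In bulk RNA, fewer cells that express a gene and less of its RNA per cell cannot be told apart.

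**Figure D1:**
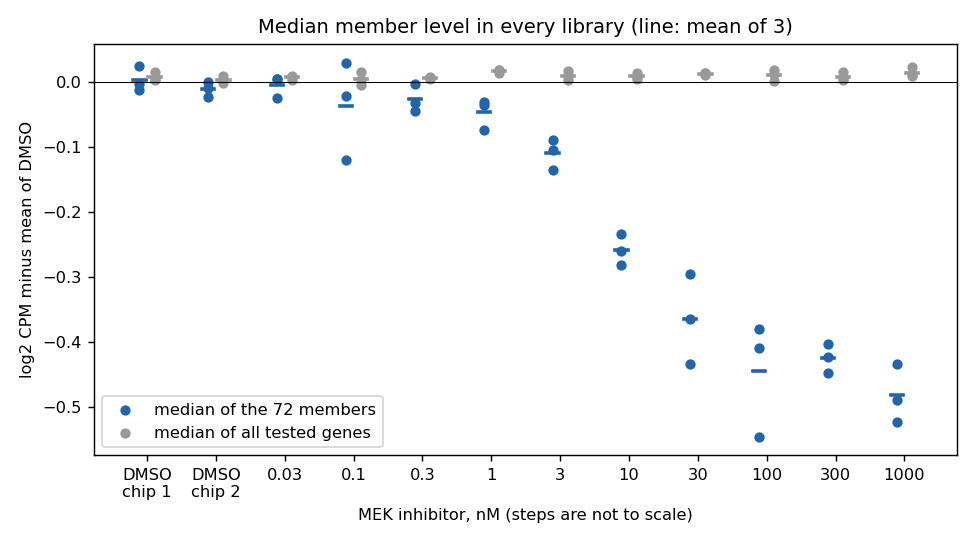
Median log2 CPM of the 72 members (blue) and of all tested genes (grey), minus the DMSO mean, for each of the 36 libraries (points) with the mean of each group of 3 (lines). All 3 libraries of each dose from 1 nM upwards have a member median below the DMSO range, by little at 1 nM (-0.07 to -0.03), and it lies between -0.52 and -0.43 at 1000 nM, while the median of all genes stays near 0. Some libraries at 0.03, 0.1 and 0.3 nM also lie below the DMSO range.

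A member was called at a dose when it differed from DMSO of chip 1 and also from DMSO of chip 2, with the same sign. The larger p of edgeR's quasi-likelihood test had to be below 0.05 after adjustment. No member was called at 0.03, 0.1 or 0.3 nM, where the background over the 12102 tested genes was 0.0% in either direction, 0, 5 and 4 members had an unadjusted p below 0.05 by edgeR, and DESeq2 called 0. At 1 nM, 4 members were called lower (background 4.02%) and 1 higher (background 3.95%). At 3 nM, 6 were lower (background 6.68%) and none higher (background 6.66%), with 2 higher at an unadjusted p below 0.05 by edgeR, 0 called by DESeq2, and 1 to 3 called by edgeR under some choices of DMSO libraries. The count then separated from the background. At 10 nM 23 of 72 were lower (31.9%, background 13.3%), at 30 nM 35 (48.6%, background 18.0%), and at 100 nM 39 (54.2%, background 18.8%). With 1 library left out these counts were 17 to 21, 30 to 37 and 31 to 39, with no background count made beside them. At 300 nM and at 1000 nM 39 were lower again, against backgrounds of 23.0% and 20.7%. Higher calls numbered 1 at 10 nM (background 13.5%), 2 at 30 nM (background 18.0%), 1 at 100 nM (background 18.4%), 3 at 300 nM (background 22.1%) and 2 at 1000 nM (background 21.2%). The higher count at 30 nM was 1 without replicate 1 or 2 of 30 nM, replicate 1 or 2 of DMSO chip 1 or any 1 replicate of DMSO chip 2, and the count at 100 nM was 2 without replicate 2 of 100 nM.

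**Figure D2:**
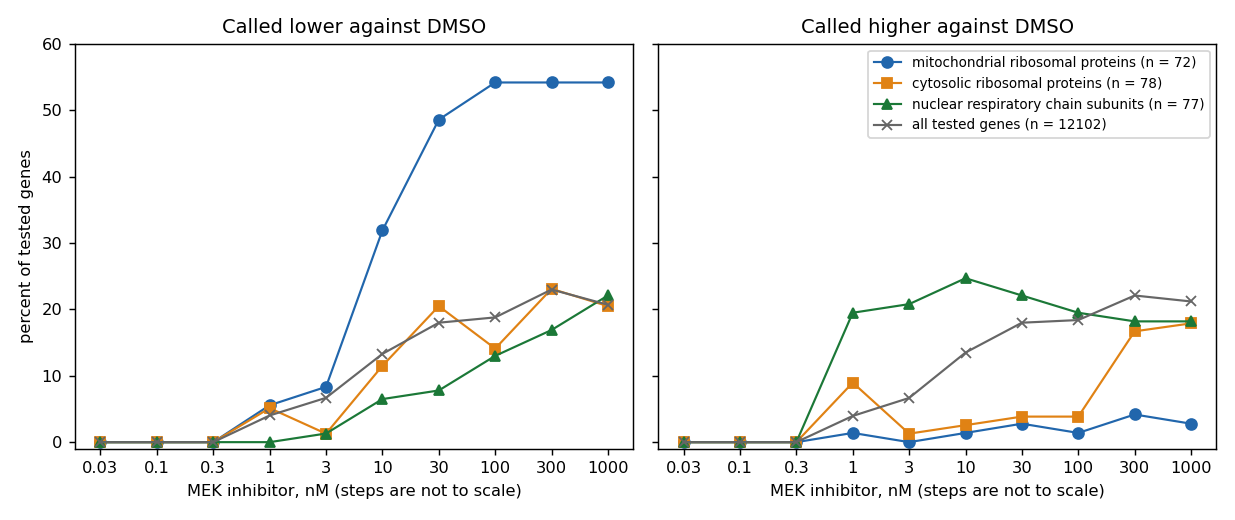
Percent of tested genes called lower (left) and higher (right) against DMSO at each dose, for the 72 members, 78 cytosolic ribosomal proteins, 77 nuclear respiratory chain subunits and all 12102 tested genes. The cytosolic and respiratory lists were taken by gene name. For the members the lower share reaches 54.2% at 1000 nM against 20.7% of all genes, and the higher share stays at or under 4.17%.

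At 0.03 nM the median log2 fold change of the 72 members was 0.01, and at 1 nM -0.04. It reached -0.27 at 10 nM, -0.40 at 30 nM and -0.49 at 1000 nM, where the median over all tested genes was 0.01. At that dose 63 of 72 members had a negative fold change, 29 were called lower by at least 1.5-fold and 8 by at least 2-fold. In 38 members all 3 libraries at 1000 nM lay below all 6 DMSO libraries (52.8%, background 22.4%), and in 3 members, MRPS6, MRPL33 and MRPL43, all lay above (background 22.9%). The same 31 members were called lower at each of 30, 100, 300 and 1000 nM. Over all doses 45 members were called lower at 1 or more, 4 were called higher at 1 or more (MRPS6, MRPL33, MRPL4 and MRPL53), MRPL4 was called in both directions, and 24 were called at none. The counts by fold limit and over several doses were made for members only, so they have no background here.

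**Figure D3:**
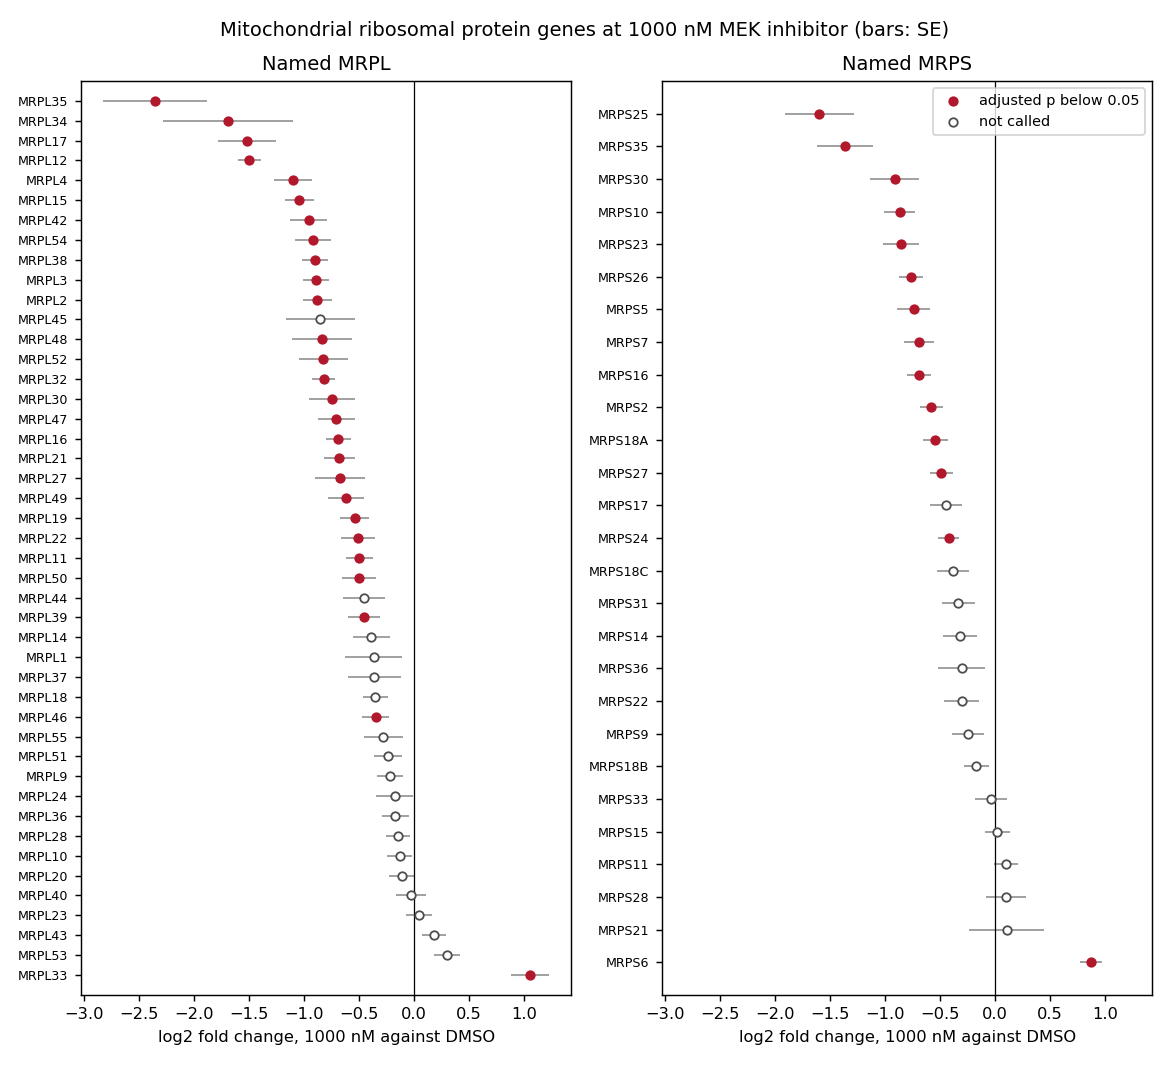
Log2 fold change at 1000 nM against DMSO for each of the 72 members, MRPL on the left and MRPS on the right (points: edgeR estimate, bars: SE, filled red: adjusted p below 0.05, open: not called). Most points lie left of 0, from -2.35 for MRPL35 to 1.05 for MRPL33, the highest.

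MRPL12, the bacterial L7/L12 counterpart in the flexible stalk that recruits translation factors, gave the smallest adjusted p of the members at 1000 nM. It was at 127 to 145 CPM in the 6 DMSO libraries with a median of 138 CPM. The 3 libraries were at 106, 94.4 and 109 CPM at 1 nM, at 78.4, 82.3 and 75.9 CPM at 10 nM, and at 45.3, 52.7 and 48.3 CPM at 1000 nM. Every library from 1 nM upwards was below the lowest DMSO library, and the fitted level at 1000 nM was 35.4% of that in DMSO. The log2 fold change was -0.42 ± 0.10 at 1 nM (adjusted p = 0.00653, edgeR) and -1.50 ± 0.10 at 1000 nM (adjusted p = 7.36e-17). Without replicate 2 of 1 nM the first of these was -0.36 (adjusted p = 0.0608, edgeR).

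The proteins that hold the stalk moved less. MRPL11, at the stalk base, was at 67.6 to 79.3 CPM in DMSO (median 69.99) and at 49.8, 60.9 and 43.9 CPM at 1000 nM, all below DMSO, with a log2 fold change of -0.50 ± 0.12 (adjusted p = 0.0035, edgeR). MRPL10, which carries MRPL12, was at 119 to 125 CPM in DMSO (median 123) and at 137, 107 and 91.2 CPM at 1000 nM, on both sides of the DMSO range. Its log2 fold change was -0.13 ± 0.11 (adjusted p = 0.425, edgeR), and without replicate 1 of 1000 nM -0.31 (adjusted p = 0.0368). The difference between the 3 stalk genes was not tested.

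MRPL17, a large subunit protein near the exit tunnel with a bacterial counterpart, was at 20.4 to 26.4 CPM in DMSO (median 24.2) and at 6.75, 6.14 and 11.6 CPM at 1000 nM. The groups did not overlap, and the log2 fold change was -1.52 ± 0.26 (adjusted p = 7.87e-06, edgeR). MRPL15, also a large subunit protein of bacterial origin, was at 94.0 to 109 CPM in DMSO (median 96.2) and at 41.1, 51.5 and 49.9 CPM at 1000 nM. It fell by 1.04 on the log2 scale (SE 0.13; adjusted p = 9.35e-09, edgeR), with no overlap. MRPL42 and MRPL54, which have no bacterial counterpart, were at 23.6, 24.0 and 27.8 CPM and at 14.9, 16.1 and 16.7 CPM at 1000 nM, below DMSO ranges of 45.3 to 51.7 CPM and 26.1 to 33.6 CPM. Their log2 fold changes were -0.96 ± 0.17 and -0.91 ± 0.16. MRPL42 has a near copy, MRPL42P5, with its own row (mean 6.36 counts), so its count may be split between them.

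MRPL35 and MRPL34 had the largest fitted falls, on low counts. MRPL35 was at 4.79 to 14.0 CPM in DMSO (median 9.75) and at 0.281, 0.585 and 4.34 CPM at 1000 nM. All 3 were below DMSO, with the third close to it, and the log2 fold change was -2.35 ± 0.47 (adjusted p = 0.000193, edgeR), or -4.39 without replicate 3 of 1000 nM. MRPL34 was at 4.09 to 10.3 CPM in DMSO (median 7.45) and at 0, 0.878 and 5.31 CPM at 1000 nM, the third inside the DMSO range. Its log2 fold change was -1.69 ± 0.59 (adjusted p = 0.0216, edgeR) and -3.97 without replicate 3 of 1000 nM. The call was lost without replicate 1 (-1.15, adjusted p = 0.0887) or replicate 2 of 1000 nM (-1.35, adjusted p = 0.0889), and without replicate 1 of either DMSO chip (adjusted p = 0.102 and 0.0988) or replicate 2 of DMSO chip 2 (adjusted p = 0.0548).

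In the small subunit, MRPS25 and MRPS35, both without a bacterial counterpart, fell most. MRPS25 was at 12.6 to 20.9 CPM in DMSO (median 17.4) and at 3.66, 5.56 and 7.48 CPM at 1000 nM, a log2 fold change of -1.60 ± 0.31 (adjusted p = 4.87e-05, edgeR) with no overlap. MRPS35 was at 234 to 283 CPM in DMSO (median 263). It was at 125, 132 and 172 CPM at 1 nM, at 116, 114 and 97.2 CPM at 10 nM, and at 46.4, 117 and 140 CPM at 1000 nM. Every one of these libraries was below DMSO, but those at 1000 nM spread 3-fold among themselves. The log2 fold change at 1000 nM was -1.37 ± 0.26 (adjusted p = 0.00012, edgeR).

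The spread of MRPS35 at 1000 nM ran along the main axis of variation within groups, which held 19.8% of the within-group variance. Replicates 1, 2 and 3 of 1000 nM scored 0.503, -0.03 and -0.474 on it, and replicate 3 of 30 nM scored -0.377. MRPS30, MRPL45, MRPL35, MRPL34, MRPS25, MRPL42 and MRPL54 had the same order of the 3 libraries at 1000 nM, and MRPL4 and MRPL10 the opposite order. These genes are examples, and the order was not counted over all members. The axis was derived from these same libraries, and genes can share an order of 3 libraries by chance. MRPL45 was called at 10 nM but not at 1000 nM, where its libraries were at 13.8, 28.4 and 48.3 CPM against 47.1 to 69.1 CPM in DMSO (log2 fold change -0.85 ± 0.31, adjusted p = 0.053, edgeR). The part of this axis in the results was not tested beyond a fit with it as a covariate, in which 43 members were called lower at 1000 nM. Of all 12102 tested genes, 2822 were called lower at that dose in this fit and 2503 in the main fit.

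MRPL4 was the member called in both directions. It was at 47.3 to 54.3 CPM in DMSO (median 49.97), at 82.4, 61.6 and 69.9 CPM at 1 nM and at 30.7, 24.6 and 16.2 CPM at 1000 nM. The libraries at 1 nM all lay above DMSO and those at 1000 nM all below. The log2 fold change was 0.49 ± 0.15 at 1 nM (adjusted p = 0.0396, edgeR) and -1.10 ± 0.17 at 1000 nM (adjusted p = 4.65e-07). The call at 1 nM was lost without replicate 1 (0.37, adjusted p = 0.21) or replicate 3 of 1 nM (adjusted p = 0.0737) and without any 1 of the 6 DMSO libraries (adjusted p = 0.0631 to 0.16). Without replicate 3 of 1 nM, 2 other members were called higher at that dose.

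The other members called at 1 nM, the lowest dose with calls, were MRPS35, MRPL34 and MRPL52. MRPL52, with no bacterial counterpart, was at 22.5 to 27.3 CPM in DMSO (median 24.2) and at 14.5, 11.9 and 16.2 CPM at 1 nM, a log2 fold change of -0.79 ± 0.22 (adjusted p = 0.0163, edgeR). MRPS35 was at -0.87 ± 0.25 (adjusted p = 0.0336) and MRPL34 at -2.11 ± 0.63 (adjusted p = 0.031, edgeR). These 3 calls were not stable to single libraries. Without replicate 2 of 1 nM, none of the members called lower at this dose kept its call, and the adjusted p was 0.102 for MRPL52, 0.11 for MRPS35 and 0.133 for MRPL34. The count of 4 lower was 2 without replicate 1 or 2 of DMSO chip 1, 1 without replicate 1 of DMSO chip 2 and 2 without replicate 2 of DMSO chip 2.

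MRPS6 and MRPL33 were the members called higher at 1000 nM. MRPS6, the counterpart of bacterial S6 at the platform of the small subunit, was at 91.3 to 108 CPM in DMSO (median 102). It was at 141, 135 and 151 CPM at 10 nM and at 195, 176 and 183 CPM at 1000 nM, all above DMSO. The log2 fold change was 0.50 ± 0.10 at 10 nM (adjusted p = 0.000499, edgeR) and 0.87 ± 0.10 at 1000 nM (adjusted p = 1.13e-09), and it was called at all 5 doses from 10 nM upwards. MRPL33, a small large-subunit protein of bacterial origin, was at 15.03 to 24.0 CPM in DMSO (median 22.5) and at 54.0, 38.0 and 41.3 CPM at 1000 nM, above DMSO. Its log2 fold change was 1.05 ± 0.17 (adjusted p = 1.02e-05, edgeR), and it was also called at 30 and 300 nM but not at 100 nM (0.48 ± 0.18, adjusted p = 0.0841).

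**Figure D4:**
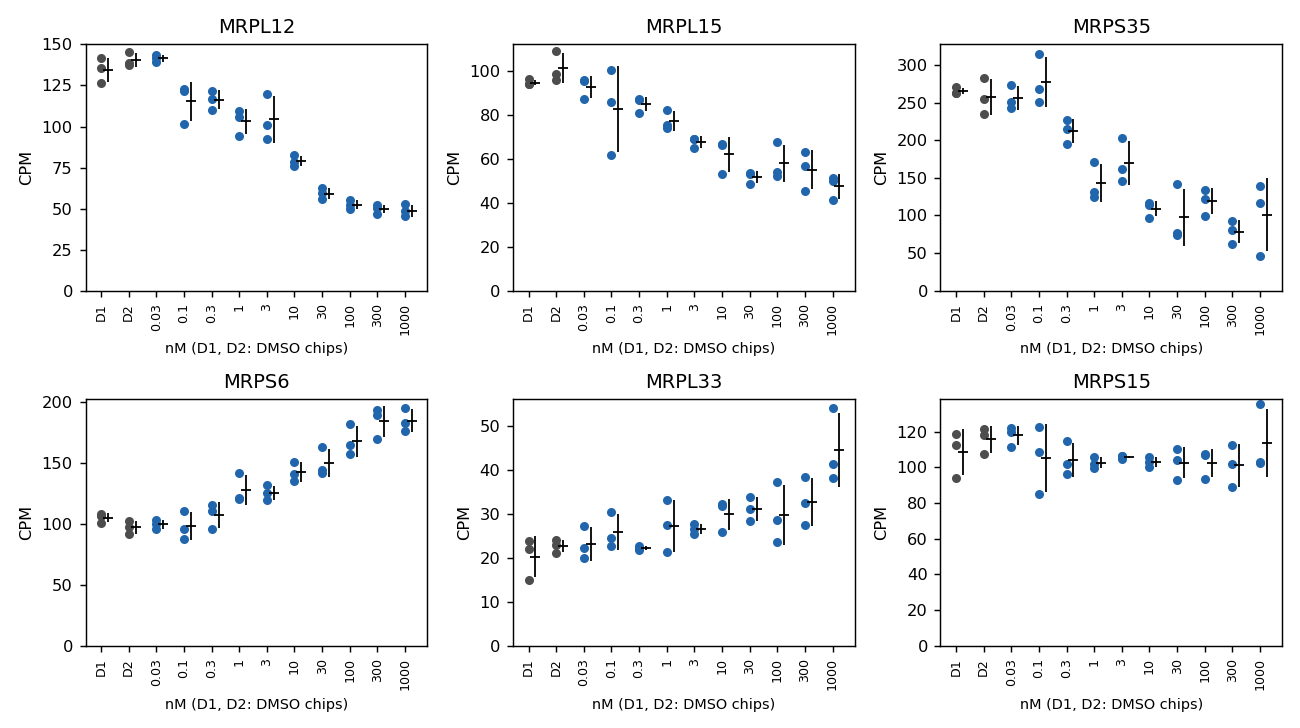
CPM of 6 members in every library by dose (grey: DMSO of chip 1, D1, and chip 2, D2; blue: treated; bars beside the points: mean ± SD of 3 libraries). MRPL12, MRPL15 and MRPS35 end below DMSO, MRPS6 and MRPL33 end above it, and MRPS15 overlaps DMSO at 1000 nM.

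Of the 31 members not called at 1000 nM, MRPS15, MRPL40, MRPS33 and MRPL23 had fold changes nearest to 0. MRPS15, the counterpart of bacterial S15, was at 93.8 to 122 CPM in DMSO (median 116) and at 136, 103 and 103 CPM at 1000 nM, 2 of the 3 inside the DMSO range. Its log2 fold change was 0.02 ± 0.11 (adjusted p = 0.907, edgeR). MRPL40 was at -0.03 ± 0.14, MRPS33 at -0.04 ± 0.14 and MRPL23 at 0.04 ± 0.12, each with a sign that turned under other settings. MRPS36, since described as a subunit of the oxoglutarate dehydrogenase complex, was not called at any dose.

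The MRPS18 paralogs are 3 genes for related proteins, of which MRPS18A sits in the large subunit and MRPS18B and MRPS18C in the small subunit. MRPS18A was at 97.1 to 118 CPM in DMSO (median 106) and at 71.5, 76.4 and 72.4 CPM at 1000 nM, below DMSO, with a log2 fold change of -0.54 ± 0.11 (adjusted p = 0.000225, edgeR). It was called lower at every dose from 3 nM upwards. MRPS18B was at 127 to 162 CPM in DMSO (median 136) and at 152, 103 and 116 CPM at 1000 nM. Its fold change was -0.17 ± 0.11 (adjusted p = 0.298, edgeR), and without replicate 1 of 1000 nM -0.35 (adjusted p = 0.0163). MRPS18C was at 43.6 to 66.0 CPM in DMSO (median 55.9) and at 43.6, 43.6 and 39.3 CPM at 1000 nM, at the lower end of DMSO or below it. Its fold change was -0.38 ± 0.15 (adjusted p = 0.0812, edgeR), and it was not called in 13 of 20 other settings. It was called lower in the others, at -0.45 without replicate 1 of DMSO chip 1 (adjusted p = 0.0231), at -0.45 with DMSO of chip 2 alone (adjusted p = 0.00963), with summed DMSO or the mean of both DMSO groups, with either other filter and with the first replicates of 1000 and 1 nM and replicate 2 of 0.1 nM all left out. Over the dose series MRPS18B was called lower at 2 doses, the first of them 3 nM, and MRPS18C at 1 dose, 100 nM. The difference between the paralogs was not tested.

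**Figure D5:**
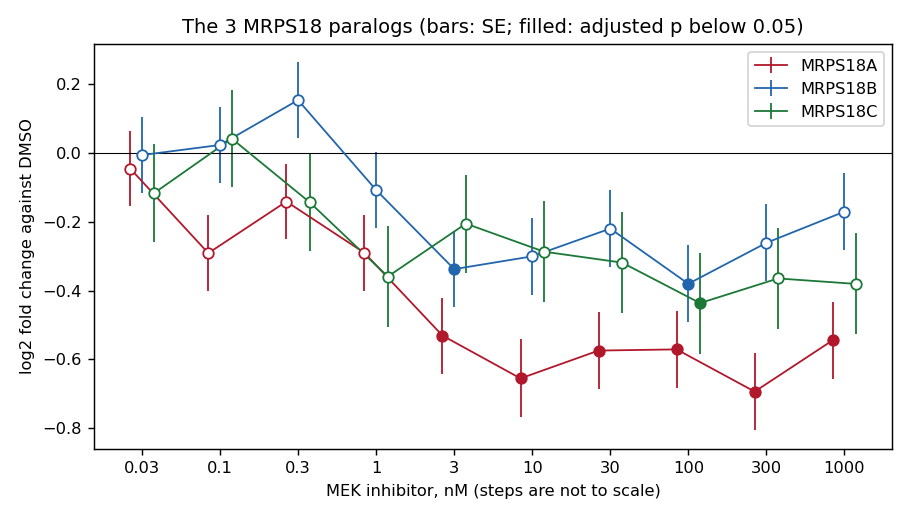
Log2 fold change against DMSO of MRPS18A, MRPS18B and MRPS18C at each dose (bars: SE, filled points: adjusted p below 0.05). MRPS18A is called from 3 nM upwards and stands at -0.54 at 1000 nM, where MRPS18B (-0.17) and MRPS18C (-0.38) are not called. MRPS18B is called lower at 2 doses, the first of them 3 nM, and MRPS18C at 1 dose, 100 nM.

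By name, 26 of 45 MRPL genes and 13 of 27 MRPS genes were called lower at 1000 nM, with median log2 fold changes of -0.51 and -0.42. Split by origin, 17 of 29 genes named MRPL with a bacterial counterpart were lower (median -0.54) and 9 of 16 without one (median -0.48). Of the genes named MRPS it was 6 of 15 with a counterpart (median -0.38) and 7 of 12 without (median -0.52). These groups follow the names, so the MRPS counts include MRPS30 and MRPS18A, which sit in the large subunit and were both lower. These groups were not tested against each other.

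Of the 4 steps of 10-fold in dose that were tested, the step from 1 to 10 nM had the most members called, 17 of 72. From 0.1 to 1 nM, 5 members were called lower (background 6.87%) and 5 higher (background 8.16%), with MRPS35 (-0.96 ± 0.25), MRPS10 (-0.62 ± 0.13) and MRPL49 (-0.58 ± 0.16) the largest falls, followed by MRPL19 and MRPS18C. MRPL20 (0.48 ± 0.11), MRPL23 (0.41 ± 0.11) and MRPS6 (0.38 ± 0.10) had the largest rises, followed by MRPL53 and MRPS16. Without replicate 2 of 0.1 nM, which stood apart, 2 were lower and 0 higher, and MRPS35, MRPL20, MRPL23 and MRPS6 lost their calls. Lower calls also dropped to 3 without replicate 1 of 0.1 nM, MRPL49 being lost, and higher calls to 2 without replicate 1 of 1 nM, MRPS6 being lost. MRPL23 lost its call without replicate 2 of 1 nM.

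From 1 to 10 nM, 17 members were lower (background 8.36%) and none higher (background 7.06%), with 0 higher at an unadjusted p below 0.05 by edgeR and 0 by DESeq2. The largest were MRPL3 (-0.70 ± 0.12), MRPL2 (-0.69 ± 0.12), both core proteins of the large subunit, and MRPL30 (-0.68 ± 0.20). Without replicate 3 of 10 nM the count was 10 and MRPL30 was not called. From 10 to 100 nM, 5 were lower (background 3.35%) and none higher (background 1.78%), with 2 higher at an unadjusted p below 0.05 by edgeR and 0 called by DESeq2. The 5 were MRPL12 (-0.59 ± 0.11), MRPL4 (-0.57 ± 0.16), MRPL21 (-0.53 ± 0.14), MRPS26 and MRPL16. That count was 2 without replicate 1 or 2 of 10 nM or replicate 1 of 100 nM, and 3 without replicate 2 or 3 of 100 nM. MRPL4 lost its call without any 1 of these libraries other than replicate 2 of 100 nM, and also without replicate 3 of 10 nM. MRPL21 lost it without replicate 1 or 2 of 10 nM or replicate 1 or 2 of 100 nM. From 100 to 1000 nM no member was called (background 0.00826% lower and 0.0% higher), with 4 at an unadjusted p below 0.05 by edgeR and 0 called by DESeq2. Between the DMSO chips no member was called either (background 0.0%), with 2 at an unadjusted p below 0.05 by edgeR and 0 called by DESeq2. Same-numbered DMSO libraries of the 2 chips deviated together, which this fit leaves out, and 0 members were called in the fit with the replicate number as a block over all 36 libraries.

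A dose curve with a slope of 1 was fitted to log2 CPM for the 31 members that were called at 1000 nM and differed there by 1.5-fold or more. The midpoint dose of the curve had a standard error under 0.2 (log10 scale) in 12 of them, with a median of 6.21 nM and a range from 1.26 nM for MRPS10 to 15.6 nM for MRPL16. In the others the midpoint was less certain and ran wider, from 0.114 nM for MRPL52 to 60.6 nM for MRPL48. Among the 12, MRPS10 was followed by MRPL47 at 1.69 nM and MRPL15 at 2.31 nM. At their upper end MRPL16 was followed by MRPS26 at 14.9 nM and MRPL21 at 12 nM. MRPL12 was at 8.49 nM (7.01 to 10.3, 1 SE each way) and MRPS6, a member that rose, at 4.92 nM. For orientation, the same fit gave 9.6 nM for DUSP6 and 10.2 nM for MYC, which encodes a transcription factor. All of these are midpoints of the log2 change. In genes that change by different amounts, they do not mark the same share of RNA left, so they do not order the genes by sensitivity. DUSP6 was already called lower at 1 nM (log2 fold change -0.83 ± 0.12, adjusted p = 5.25e-06, edgeR).

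Other genes for the mitochondrial ribosome and its function were also called lower at 1000 nM, in shares from 53.8% to 85.7% of a list, against 20.7% of all tested genes lower and 21.2% higher. Of 7 further subunits not named MRPL or MRPS, 6 were lower and none higher (median -0.53), among them ICT1, a peptidyl-tRNA hydrolase built into the large subunit (-1.19 ± 0.14), DAP3 of the small subunit (-0.64 ± 0.11), AURKAIP1 (-0.53 ± 0.12) and MRP63 (-0.91 ± 0.25). CHCHD1 was at 0.44 ± 0.48 (adjusted p = 0.535, edgeR). Of 31 assembly and rRNA factors, 21 were lower and 1 higher (median -0.52), the latter YBEY (0.65 ± 0.15). These included NGRN (-0.97 ± 0.13), RBFA, which matures the small subunit (-1.42 ± 0.19), C1QBP (-0.83 ± 0.10) and the GTPase GTPBP10 (-0.87 ± 0.12). FASTKD2 (-0.41 ± 0.19) and MTERFD2 (0.34 ± 0.18) were not called, nor in 15 and 18 of 20 other settings. FASTKD2 was called at -0.64 without replicate 1 of 1000 nM and with DMSO of chip 1 alone, summed DMSO or the mean of both DMSO groups, and MTERFD2 at 0.48 without replicate 3 of 1000 nM and with that mean.

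Of 15 translation factors 9 were lower and 1 higher (median -0.45). The elongation factor TUFM and its exchange factor TSFM were at -1.08 ± 0.11 and -1.08 ± 0.14, and GFM1, the translocase, at -0.64 ± 0.13. MTIF3, an initiation factor, was the 1 that rose, at 39.0 to 49.3 CPM in DMSO and 73.5, 67.6 and 82.3 CPM at 1000 nM (0.74 ± 0.12). GFM2 (0.32 ± 0.15) and TACO1 (-0.34 ± 0.16) were not called, nor was either in 17 of 20 other settings. Both were called with the mean of both DMSO groups. They were also called with the first replicates of 1000 and 1 nM and replicate 2 of 0.1 nM all left out. GFM2 was called with DMSO of chip 1 alone as well, and TACO1 with summed DMSO. Of 16 mitochondrial aminoacyl-tRNA synthetases 9 were lower and 1, HARS2 (0.45 ± 0.12), higher (median -0.57), with EARS2 at -1.23 ± 0.14, AARS2 at -1.14 ± 0.20, YARS2 at -0.97 ± 0.11 and NARS2 at -0.88 ± 0.13. TARS2 (-0.33 ± 0.14) and WARS2 (-0.53 ± 0.21) were not called, nor in 14 and 15 of 20 other settings. Without replicate 1 of 1000 nM they were called at -0.47 and -0.76, and both were also called with summed DMSO or the mean of both DMSO groups.

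Of 13 genes of mitochondrial transcription and its nuclear regulators, 7 were lower and 1, GABPA (0.53 ± 0.13), higher (median -0.57). MYC was at 411 to 454 CPM in DMSO and at 61.4, 56.5 and 49.9 CPM at 1000 nM (-2.92 ± 0.10), and PPRC1, a coactivator of the PGC-1 family, was at -1.63 ± 0.18. TFB2M and POLRMT, the initiation factor and the polymerase of mitochondrial DNA transcription, were at -1.40 ± 0.19 and -1.13 ± 0.18. GABPB1 (-0.57 ± 0.24) and MTERF (0.52 ± 0.22) were not called, nor in 12 and 16 of 20 other settings. GABPB1 was called at -0.82 without replicate 1 of 1000 nM, and also with DMSO of either chip alone, summed DMSO, the mean of both DMSO groups, a filter of 1 CPM in 3 libraries or the covariate. MTERF was called at 0.61 without replicate 2 of DMSO chip 2, and also with DMSO of chip 1 alone, summed DMSO or that mean. Cytosolic ribosomal proteins had 16 of 78 lower (20.5%, background 20.7%) and 14 higher (17.9%, background 21.2%), with a median of -0.01. Nuclear respiratory chain subunits had 17 of 77 lower (22.1%) and 14 higher (18.2%), against the same backgrounds, with a median of -0.07. Both lists were taken by gene name without a check that each row is a subunit. They hold rows such as RPL7L1 and RPS27L, and UQCRBP1 and ATP5SL. At 1 nM 15 of the 77 were higher (19.5%, background 3.95%) and 0 lower (background 4.02%), while 1 of the 72 members was higher (1.39%) and 4 were lower (5.56%). The count of 15 was not checked with libraries left out or with other uses of DMSO, and replicate 1 of 1 nM stood apart from its group. The lists were not tested against each other.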

How the data were processed

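Read counts per gene are as the authors deposited them, 1 file per library plus a matrix with the same values as the 36 files. RNA (10 ng a library) was made into cDNA and amplified with Ion AmpliSeq, and libraries were sequenced in pools, per the labels' protocols. Per the submitters' processing notes the build was hg19. The sources used here give no aligner or counter. Amplicon reads carry no molecular identifiers, so counts include amplification error. The 10 spike-in rows held 0 counts and were left out. The members and gene lists were chosen with earlier results of these data known.

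Counts were tested with edgeR 4.0.16 (limma 3.58.1, R 4.3.3): filterByExpr kept 12102 of 20802 genes, TMM scaling, 1 robust quasi-likelihood fit of 12 groups with 24 residual degrees of freedom. Every dose was compared with DMSO of chip 1 and, separately, with DMSO of chip 2. The larger p was Benjamini-Hochberg adjusted over all tested genes and called below 0.05 if both signs agreed. Fold changes are relative to the average of the 2 DMSO groups and carry the larger SE. CPM values are TMM-scaled. Same-numbered DMSO libraries of the 2 chips deviated together (r = 0.119 to 0.251 over 10414 genes, 3 of 3 pairs over 0.1). Labels call the replicates biological without naming separate cultures, so p-values measure the spread between these libraries. Chi-square per degree of freedom between replicates was 1.55 to 11.1, and 1.53 to 1.58 between same-numbered DMSO libraries, so none agreed within sampling noise.

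Members named at 1000 nM were the 10 largest called changes in each direction and the 4 smallest uncalled ones. The MRPS18 and stalk genes, up to 5 called at the lowest dose with calls, up to 3 per direction and step, and the 3 lowest and highest midpoint doses were also named. From other lists, up to 4 called and 2 other genes by adjusted p were named. MRPL19, MRPL43, MRPL45, MRPL53, MRPS16, MRPS30, MRPS36, YBEY, HARS2 and GABPA were chosen after their values were seen. Midpoint doses used log2 CPM with a prior count of 1. Alternatives were DESeq2 1.42.0, RLE scaling, other filters, other uses of DMSO, a replicate block and libraries left out. A covariate for the main axis of within-group variation was added after seeing the data. The scripts were tested on simulated data, and their recovery limit was lowered once when the first was narrowly missed.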

Additional observations from a re-analysis of the deposited data

How the results depend on the processing

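Of the members called lower at 1000 nM, 39 in the main fit, the other planned fits and the covariate fit called 38 to 47, and leaving out 1 library 36 to 40. Lower calls over all tested genes moved too at 1000 nM, from 2503 in the main fit to 2822 with the covariate. They were 3133 with summed DMSO and 3223 with the mean of both DMSO groups. The member counts given below for other doses and steps have no such count beside them. The replicate numbers do not pair doses with DMSO (r = -0.106 to 0.138, 2 of 60 pairs over 0.1, and 16 of 60 correlated best with their own number), and with the replicate block 38 were called lower. Low counts limit MRPL34 and MRPL35, and calls at 1 and 3 nM depend on the choice of DMSO libraries. Causes were not tested. At 0.3 nM the covariate or no filter gave 1 lower. At 1 nM (4 lower, 1 higher) the lower count was 11 with DMSO chip 2 alone, summed DMSO, the covariate or no filter, 14 with the mean of both DMSO groups and 8 without 3 libraries that stand apart (the first replicates of 1000 and 1 nM, and from 0.1 nM replicate 2). That fit kept replicate 3 of 1000 nM and replicate 3 of 30 nM. Their deviations (0.41 and 0.35) were larger than that of replicate 2 of 0.1 nM (0.34). The higher count was 2 with chip 1 alone, 5 with chip 2 alone, 3 with summed DMSO or the covariate and 6 with the mean. At 3 nM (6 lower, 0 higher) the lower count was 11 with chip 1 alone, summed DMSO or the covariate, 10 with chip 2 alone or no filter and 15 with the mean. The higher count was 3 with chip 2 alone or the mean, 1 with summed DMSO or the covariate and 2 without the 3 libraries. At 10 nM (1 higher) it was 2 with either chip alone or summed DMSO and 3 with the mean. At 30 nM (2 higher) it was 1 with DESeq2 or a filter of 1 CPM in 3 libraries. At 100 nM (1 higher) it was 2 with chip 1 alone, summed DMSO or the mean. From 0.1 to 1 nM (5 lower, 5 higher) the covariate gave 10 lower, no filter 11 lower and 3 higher, and the fit without the 3 libraries 3 lower and 1 higher. From 10 to 100 nM (5 lower) the covariate gave 8 and the fit without the 3 libraries 9. With 1 library left out, the ranges were 0 to 5 lower and 0 to 2 higher at 1 nM, and 17 to 21 lower at 10 nM. They were 30 to 37 lower and 1 to 3 higher at 30 nM, and 31 to 39 lower and 1 to 2 higher at 100 nM. For the steps they were 2 to 6 lower and 0 to 5 higher from 0.1 to 1 nM, 10 to 17 lower from 1 to 10 nM and 2 to 4 lower from 10 to 100 nM. Signs turned at 1000 nM for uncalled genes near 0. MRPS15 was at -0.027 with chip 2 alone, -0.018 with the 1 CPM filter, -0.0074 with no filter, -0.13 without the 3 libraries and -0.13 to 0.087 with 1 library left out. MRPS33 was at 0.065 with chip 1 alone and -0.099 to 0.029 with 1 left out, and MRPL23 at -0.040 with chip 1 alone, -0.095 without the 3 libraries and -0.10 to 0.17 with 1 left out. With 1 left out MRPL40 was at -0.070 to 0.010 and MRPL20 at -0.24 to 0.022. KRT20, an epithelial marker, was at -0.097 with chip 2 alone and -0.17 to 0.15 with 1 left out.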

Other observations

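Epithelial marker genes moved in both directions at 1000 nM: of 10 tested, 4 were called higher (40.0%, background 21.2%) and 3 lower (30.0%, background 20.7%) by edgeR. CDX2, an intestinal transcription factor, was at 128 to 151 CPM in DMSO and at 302, 265 and 283 CPM at 1000 nM (log2 fold change 1.04 ± 0.09), and CDH1, encoding E-cadherin, was at 0.79 ± 0.09. VIL1, encoding villin of the brush border, was at 0.79 ± 0.11, and CDH17 was lower at -0.65 ± 0.09. EPCAM was at -0.04 ± 0.09 and was not called. COL3A1 (3.71 ± 0.36), COL1A1 (2.72 ± 0.29) and LUM (4.07 ± 0.50), from the fibroblast list, and LYZ (2.71 ± 0.19), from the blood list, were higher in all 3 libraries. COL3A1 was at 15.5, 21.1 and 13.8 CPM at 1000 nM and at 0.825 to 1.57 CPM in DMSO.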
